A study of Mus musculus with 6 samples.

Results

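The mRNAs of 9 DNA replication licensing genes, out of 25899 genes in the deposited table, were followed in aged female (AF) mouse oocytes. The 9 were chosen by name. They encode the 6 subunits of the replicative helicase (*Mcm2*, *Mcm3*, *Mcm4*, *Mcm5*, *Mcm6* and *Mcm7*), the helicase loaders *Cdc6* and *Cdt1*, and *Gmnn*, which encodes Geminin. All 9 had a row in the table and all 9 had a mean above 1 FPKM (fragments relative to exon length in kilobases and to mapped reads) in at least one fraction, so that each was tested.

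The 6 libraries come from CD1 females that the labels give as 58 weeks old, primed with gonadotropin, while the methods of the study name the strain as ICR and give a different age. Each sample held 200 denuded oocytes, cultured until nuclear envelope breakdown (NEBD), the step at which the first meiotic division begins, and all of them were treated with cycloheximide, which holds ribosomes on the mRNA. Each lysate was spread on a sucrose gradient, and its fractions were pooled into both a non-polysomal pool (NP, free RNA and RNA on single ribosomes; 3 libraries) and a polysomal pool (P, RNA on several ribosomes; 3 libraries). No younger group and no group without cycloheximide was analysed here. Values are relative within a library, so that less of an mRNA and more of all other RNA in a pool cannot be told apart.

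Licensing is the loading of the ring of Mcm2 to Mcm7 onto DNA at replication origins by the origin recognition complex, Cdc6 and Cdt1. Geminin binds Cdt1 and blocks a second round of loading. Between meiosis I and meiosis II oocytes do not replicate DNA, transcription is silent from the fully grown stage, and the proteins that license the first embryonic S phase are drawn from maternal stores. Translation of stored mRNA in this period depends in part on cytoplasmic polyadenylation elements (CPEs), short U-rich motifs near the poly(A) signal in the 3' UTR that are bound by CPEB proteins.

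The 3' ends of the members are shown first, because CPEs are the best known sequence feature tied to when a stored oocyte mRNA enters polysomes. For the coding transcript with the longest reading frame of each gene in GENCODE M21 (GRCm38), the last 100 bases of the 3' UTR were searched, on the sense strand, for the CPE spellings TTTTAT and TTTTAAT and for the poly(A) signal AATAAA. A CPE spelling was present in 5 of the 9 members, and in 19.3% of the 8318 tested genes with a 3' UTR of at least that length. The stretches that hold the matches are given in DNA letters with the CPE in capitals, which in *Gmnn* is the first of its CPEs.
Mcm2 (chr6:88883491-88883520, minus strand): ttgtagtttattTTTTAATagatttgaata
Mcm4 (chr16:15623967-15623996, minus strand): tttcattaatTTTTATagatccttagatta
Mcm7 (chr5:138164614-138164643, minus strand): catgctgcacttTTTTATtctgccaataaa
Cdt1 (chr8:122573072-122573101, plus strand): gctagttttggcTTTTAATaaagtcatgta
Gmnn (chr13:24751915-24751944, minus strand): gtatTTTTAATccgttttatgtaaatagca
The matches began 35 bases before the annotated 3' end in *Mcm2*, 90 in *Mcm4*, 49 in *Mcm7*, 45 in *Cdt1* and 96 in *Gmnn*. In *Cdt1* the CPE overlaps an AATAAA, and in *Gmnn* a second CPE, of the spelling TTTTAT, follows 86 bases from the end, left in small letters in its stretch. In *Mcm4* another annotated transcript, with a 3' UTR of 163 bases, held neither spelling. No match was found in this window in *Mcm3*, *Mcm5*, *Mcm6* or *Cdc6*, in any of their annotated coding transcripts with a 3' UTR. The AATAAA was present in 6 of the 9 members, all but *Mcm3*, *Mcm5* and *Cdc6* in the transcripts used, and in 65% of the tested genes. A match is a description of letters and not a measured site.

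Depth sets how far each library can be read. The depth recovered from the steps between low FPKM values was 1237799, 18096676 and 12131030 reads in NP replicates 1, 2 and 3 and 163822, 1141531 and 1549317 in P replicates 1, 2 and 3. *Mcm4*, *Mcm7*, *Cdc6* and *Gmnn*, whose spans equal those of the annotation, gave whole numbers of reads, within 0.02 reads, in 23 of 23 values above 0. For the other 5 members the read numbers below are approximate. The intervals and limits given here reflect counting error alone, because reads of amplified cDNA do not stand for separate molecules.

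*Mcm5* (chromosome 8, 75109528 to 75128439, plus strand, GRCm38) was the most abundant licensing mRNA in NP. It was at 866, 786 and 635 FPKM in NP replicates 1, 2 and 3 and at 346, 155 and 376 FPKM in P replicates 1, 2 and 3. Every P library lay below every NP library. The means were 762 ± 117 FPKM in NP and 292 ± 120 in P (SD, n = 3), and the value in P replicate 1 still rested on about 226 reads. In each library *Mcm5* stood above at least 97.4% of the genes listed above 0. Its level in P was 2.77-fold lower than in NP on the log2(FPKM + 1) scale, a log2 ratio of -1.47 (95% interval -2.73 to -0.21). With the libraries rescaled by quantiles, by median of ratios or to a common sum it was -0.45, -0.47 and -0.54.

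This did not pass the threshold of 0.1 (adjusted p = 0.256 from limma, over 10578 genes by Benjamini-Hochberg; unadjusted p = 0.0247). Over all genes tested 23.2% had every P library below every NP library, and the median log2 ratio was -1.03, so the ratio of *Mcm5* was -0.44 relative to the median gene. This relative value turned to 0.26 with a pseudocount of 0.1 and to 0.13 without P replicate 2.

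**Figure D1:**
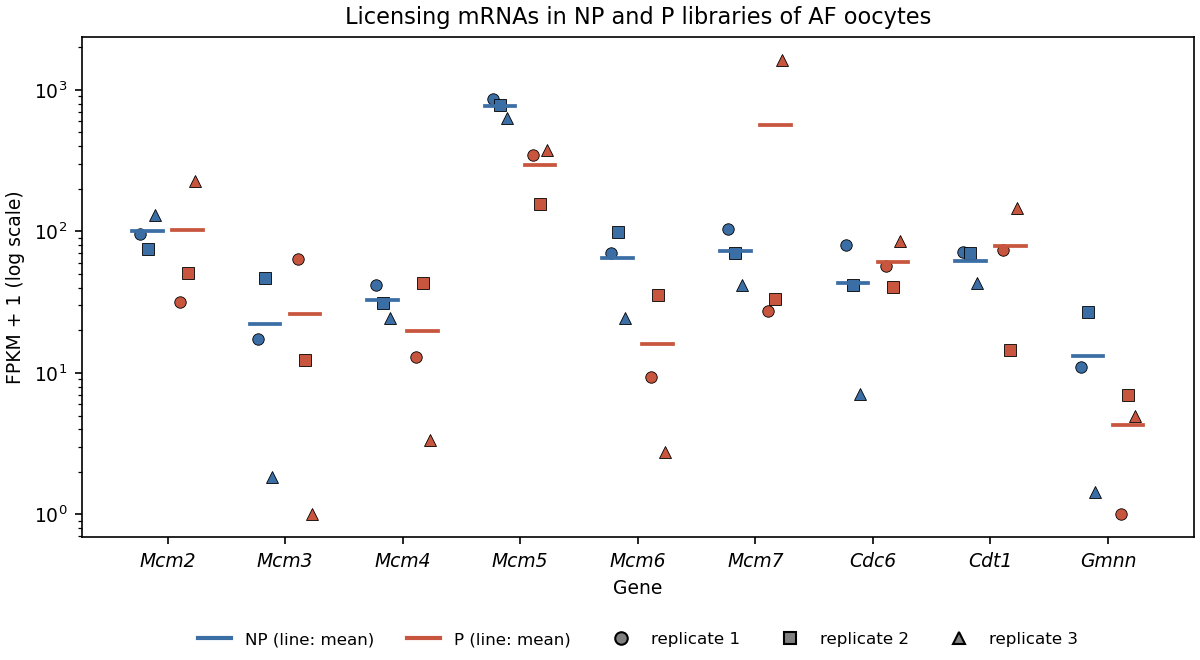
FPKM + 1 on a log scale for each licensing gene, with a point per library (blue NP, red P, marker shape for the replicate number) and a line at the mean of each fraction. *Mcm5* lies at 635 to 866 FPKM in the 3 NP libraries and at 155 to 376 in the 3 P libraries, *Mcm7* has a single value of 1636 in P replicate 3, and the points drawn at 1 are *Mcm3* in P replicate 3 and *Gmnn* in P replicate 1, listed at 0.

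*Mcm2* (chromosome 6, 88883475 to 88898780, minus strand), a subunit that also carries histones at the fork, came next in NP by its mean. It was at 94.9, 74.0 and 129.7 FPKM in NP and at 30.8, 49.6 and 225 FPKM in P replicates 1, 2 and 3. The fractions overlapped, with P replicates 1 and 2 below all NP libraries and P replicate 3 above them. P replicate 3 held 73.6% of the summed P FPKM, and without it the P mean fell from 102 to 40.2. On the log2 scale P over NP was -0.46 (95% interval -2.30 to 1.38).

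*Mcm7* (chromosome 5, 138164583 to 138172422, minus strand), which is part of the catalytic core together with Mcm4 and Mcm6, was at 102.9, 69.9 and 41.0 FPKM in NP. In P it was at 26.2, 32.1 and 1636 FPKM in replicates 1, 2 and 3. Thus 2 of the 3 P libraries were below all NP libraries and the third was the highest value of any licensing gene, held by 11219 reads against 19 and 162. In P replicate 3 *Mcm7* ranked 22nd of the 6908 genes listed above 0. That library held 96.6% of the summed P FPKM. The log2 ratio was 0.75 (95% interval -1.64 to 3.14), and without P replicate 3 it was -1.17.

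The exons annotated for *Mcm7* share bases with other genes, and the strand setting of the counting is not given in the sources used here. They share 64 bases with *Cops6* and 321 with *Ap4m1*, both on the opposite strand, and 84 and 88 with the microRNA genes *Mir25* and *Mir93*, which lie within *Mcm7*. *Cops6* was at 114, 100.6 and 298 FPKM in P and *Ap4m1* was listed at 0 in all P libraries. The part of these overlaps in the value of P replicate 3 was not tested.

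*Mcm6* (chromosome 1, 128331591 to 128359656, minus strand) had the most negative ratio of the 9, except without P replicate 3, where that of *Mcm5* was lower. It was at 68.8, 98.2 and 23.3 FPKM in NP and at 8.42, 34.7 and 1.78 FPKM in P. P replicates 1 and 3 were below all NP libraries and P replicate 2 was above NP replicate 3. The P values of replicates 1 and 3 rested on about 6 and 13 reads, and their counting intervals reached up to 17.1 and 3.07 FPKM, still under the lowest NP value. The log2 ratio was -2.50, or 5.64-fold lower in P (95% interval -4.83 to -0.16; adjusted p = 0.290 from limma, unadjusted p = 0.0372), and it was -1.47 relative to the median gene. Under the same 3 rescalings the ratio of *Mcm6* was -1.25, -1.59 and -1.62. Among the ratios of all genes tested *Mcm6* lay at percentile 12.2.

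*Mcm4* (chromosome 16, 15623897 to 15637400, minus strand) was at 41.0, 30.4 and 23.3 FPKM in NP and at 11.9, 42.0 and 2.34 FPKM in P. The same 2 P libraries were low as for *Mcm6*, and P replicate 2 was above every NP library. P replicate 1 held 7 reads, with a counting interval of 4.79 to 24.5 FPKM that reaches the lowest NP value, whereas P replicate 3 held 13 reads with an interval of 1.25 to 4.00. This gave a log2 ratio of -1.37 (95% interval -3.70 to 0.96). Over the 6 libraries *Mcm4* and *Mcm6* had the highest correlation of any pair of members (Pearson's r = 0.925 on log2(FPKM + 1)), with the fraction and the depth of the libraries shared by both.

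*Mcm3* (chromosome 1, 20802974 to 20820278, minus strand) had the lowest mean of the subunits in NP, with *Mcm4* below it in NP replicate 2. It was at 16.5, 45.9 and 0.827 FPKM in NP and at 63.3 and 11.4 FPKM in P replicates 1 and 2, and it was listed at 0 in P replicate 3. There 3 reads would be worth 0.516 FPKM. The highest and lowest NP values were 55.5-fold apart, and both fractions were lowest in replicate 3. The log2 ratio of -0.30 had an interval of -3.35 to 2.74, the widest of the 9. Leaving out P replicate 3 turned the ratio to 1.304.

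*Cdc6* (chromosome 11, 98907801 to 98923940, plus strand) encodes the ATPase that recruits the helicase to the origin complex, and its synthesis during maturation is known to give frog oocytes the ability to replicate DNA. It was at 79.7, 41.1 and 6.10 FPKM in NP and at 56.0, 39.4 and 85.2 FPKM in P. The fractions overlapped. The 3 P values were the most even of any member, with a coefficient of variation of 0.385 against 0.87 in NP, and rested on 48, 235 and 690 reads. The log2 ratio was 1.01 (95% interval -1.11 to 3.13), and lay at percentile 95.4 of all genes tested. It rests on NP replicate 3, without which it was 0.00074. With the same-numbered libraries set side by side *Cdc6* was lower in P in 2 of 3.

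*Cdt1* (chromosome 8, 122568015 to 122573128, plus strand), the partner of Cdc6 in loading, was at 70.9, 69.0 and 42.0 FPKM in NP and at 72.5, 13.6 and 146 FPKM in P. P replicate 3 was above every NP library and P replicate 2 below them. P replicate 1 rested on about 37 reads, and its counting interval of 50.6 to 99.1 FPKM spans the NP values of replicates 1 and 2. The log2 ratio was -0.15 (95% interval -2.15 to 1.85), and without P replicate 2 it was 0.79. The gene lies within the long annotated gene *Gm20388*, with which it shares no exon base.

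*Gmnn* (chromosome 13, 24751845 to 24761923, minus strand) had the lowest mean of the members in both fractions, but in P replicate 3 it was above *Mcm3*, *Mcm4* and *Mcm6*. It was at 9.93, 26.1 and 0.450 FPKM in NP, from 18, 691 and 8 reads. In P it was listed at 0 in replicate 1 and in replicates 2 and 3 it was at 5.98 and 3.97 FPKM, on 10 and 9 reads. At the depth of P replicate 1, 3 reads would be worth 12.5 FPKM, which is above the NP mean of 12.1, so a difference from NP was not detectable there. Its log2 ratio of -1.21 had a standard error of 1.35, and the 95% interval reached up to 1.58.

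*Cdt1* exceeded its inhibitor *Gmnn* in every library where both were listed. The ratio of *Cdt1* to *Gmnn* FPKM was 7.14, 2.65 and 93.3 in NP replicates 1, 2 and 3 and 2.28 and 36.9 in P replicates 2 and 3. In P replicate 1 *Cdt1* was at least 5.80-fold higher, taking 3 reads as the limit for *Gmnn*. In NP the ratio was highest in replicate 3 and lowest in replicate 2, P replicate 1 has only a lower bound, and the fractions overlapped. *Cdc6* relative to *Cdt1* was 1.13, 0.596 and 0.145 in NP and 0.773, 2.89 and 0.582 in P, again with overlap.

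In the helicase ring the 6 subunits stand in equal number, whereas the FPKM of their mRNAs differed. A comparison between genes depends on the exon length by which FPKM is divided. In GENCODE M21 the exons of all transcripts together hold 6956 bases for *Mcm2*, 3993 for *Mcm5* and 4426 for *Mcm7*. The part of these lengths in the differences was not tested. Within NP replicates 1, 2 and 3 the highest subunit was 52.6-, 25.8- and 768-fold above the lowest. *Mcm5* held 72.8%, 71.2% and 74.4% of the summed *Mcm2* to *Mcm7* FPKM in NP, a mean of 72.8% ± 1.6 (SD, n = 3). This share was nearly constant although *Mcm3*, *Mcm6* and *Mcm2* shifted between the same libraries.

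In P the share of *Mcm5* was 71.1%, 47.7% and 16.8% in replicates 1, 2 and 3. P replicate 1 therefore had the share seen in NP, while in P replicate 2 *Mcm2*, *Mcm4* and *Mcm6* took 15.3%, 12.9% and 10.7%. In P replicate 3 *Mcm7* took 73.0%, and *Mcm4* and *Mcm6* held 0.104% and 0.0794%. Summed over the 6 subunits the level was 1190, 1105 and 853 FPKM in NP and 487, 325 and 2241 FPKM in P.

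**Figure D2:**
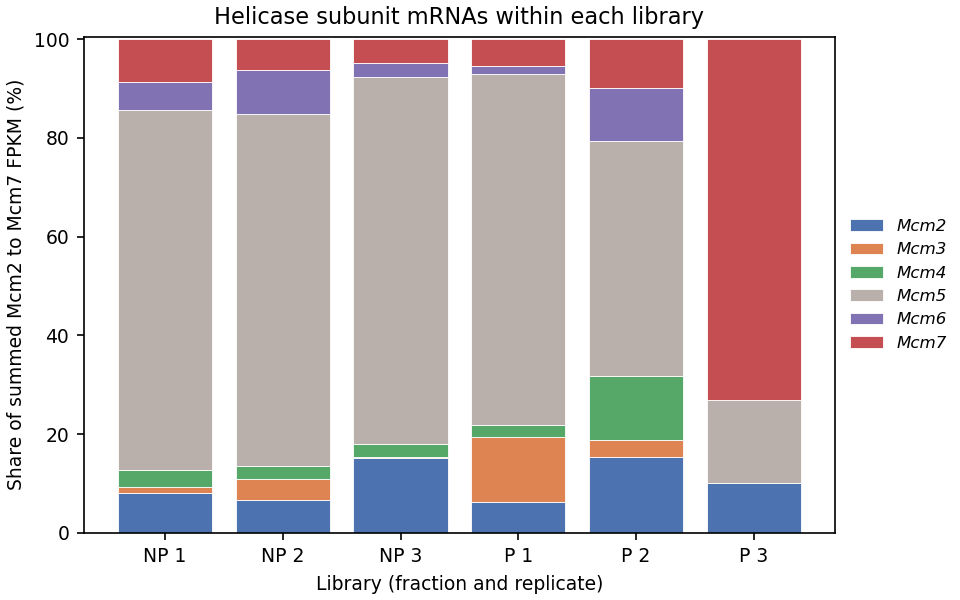
Share of the summed *Mcm2* to *Mcm7* FPKM held by each subunit, in percent, for each library. *Mcm5* holds 71.2% to 74.4% in the NP libraries and 71.1% in P replicate 1, and *Mcm7* holds 73.0% in P replicate 3.

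In the order of mean levels in NP, *Mcm5* stood apart by 7.66-fold from *Mcm2*, with no overlap of their ranges. Below it followed *Mcm7*, *Mcm6*, *Cdt1*, *Cdc6*, *Mcm4*, *Mcm3* and *Gmnn*, and each neighbour in this order overlapped the next. In P the order of means was *Mcm7*, *Mcm5*, *Mcm2*, *Cdt1*, *Cdc6*, *Mcm3*, *Mcm4*, *Mcm6* and *Gmnn*, and every neighbour overlapped. The first place of *Mcm7* rests on P replicate 3, since its mean without that library was 29.1 FPKM.

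In the comparison of P with NP, which sets the relative levels in the pools side by side, no member passed the threshold. It does not show what part of an mRNA sits on polysomes. limma called 0 of the 9 at an adjusted p under 0.1, against 1.82% of the 10578 genes tested (1.8% lower and 0.0189% higher in P). That background moved with the setting, from 1 gene without NP replicate 3 to 668 with a replicate block, and its split of 190 lower and 2 higher became 2 and 2, 1 and 2, and 5 and 2 under the 3 rescalings. At the unadjusted level 2 of the 9 (*Mcm5* and *Mcm6*) were lower in P at an unadjusted p under 0.05, against 15.5% of genes. The ratio, which compares means of log2 values, was below 0 for 7 of the 9, against 80.1% of genes. Of these *Mcm2*, *Mcm3* and *Cdt1* had a higher mean FPKM in P than in NP (102 against 99.5, 24.9 against 21.1 and 77.5 against 60.6), and their log2 ratios turned above 0 when the libraries were rescaled by quantiles, by median of ratios or to a common sum. The median log2 ratio of the 9 was -0.46, against -1.03 over all genes tested. This order turned without NP replicate 3 (-1.56 against -1.34), without P replicate 3 (-1.17 against -0.93) and with no filter on low values (-0.46 against 0). Under the 3 rescalings the median of the 9 was above 0, at 0.41 to 0.49. *Mcm5* was the only member (1 of 9, against 23.2%) whose P libraries were all below NP, and 0 of 9 had all P libraries above NP, against 0.633%. These shares lie near or under those of all genes.

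The size of change that these libraries can resolve differs between members. The 95% interval of the log2 ratio spanned -2.73 to -0.21 for *Mcm5* and -3.35 to 2.74 for *Mcm3*. For a gene taken alone, exact permutation of 3 libraries against 3 gives no p under 0.1. limma draws the spread of each gene toward that of all genes at a like level. The intervals and p-values thus do not rest on a member's own libraries alone. For *Mcm7* the standard error was 1.15, while its libraries spread around the fraction means by an SD of 2.40. For *Mcm5* these were 0.61 and 0.52. The samples are not stated to come from separate groups of animals, so the p-values speak of these libraries only.

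**Figure D3:**
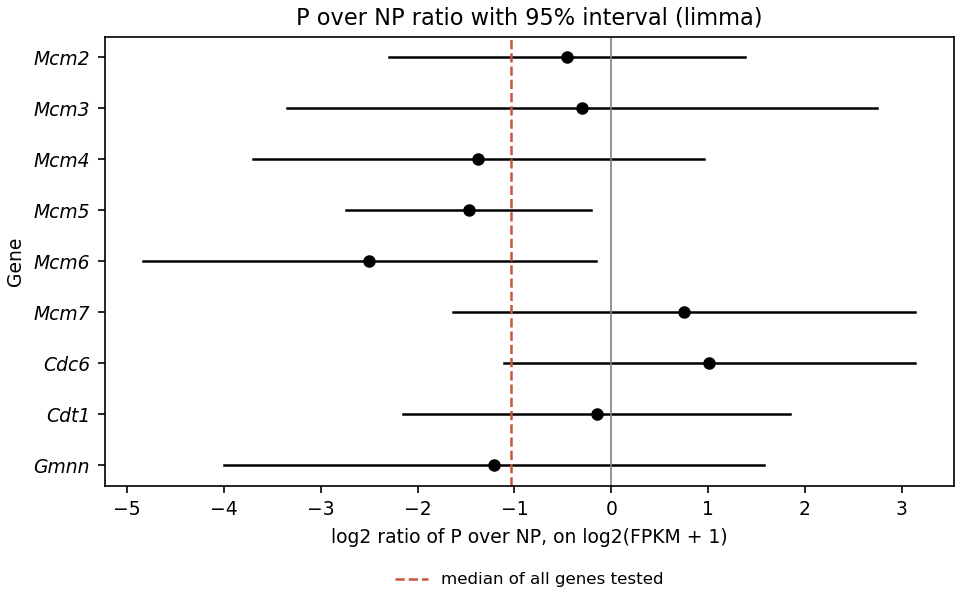
log2 ratio of P over NP for each licensing gene on the log2(FPKM + 1) scale, with the 95% interval from limma (3 libraries in each fraction). The intervals of *Mcm5* and *Mcm6* lie below 0, and the dashed line marks the median of all genes tested at -1.03.

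The members with and without a CPE spelling in the last 100 bases did not separate by their ratio. The 5 with a match ranged from -1.37 (*Mcm4*) to 0.75 (*Mcm7*) on the log2 scale, and the 4 without ranged from -2.50 (*Mcm6*) to 1.01 (*Cdc6*).

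The genes whose pattern was most like that of *Mcm5*, the member with the highest mean over the 6 libraries, were *Alg12* (Pearson's r = 0.999), *Exosc5* (0.996) and *Akr1b3* (0.995). Of 10577 genes compared over 6 libraries, 187 had a correlation above 0.9 with *Mcm5*, all of them sharing with it the fractions and library depths. *Alg12*, a mannosyltransferase gene of the endoplasmic reticulum, had NP levels of 124, 116 and 90.8 FPKM and P levels of 51.8, 26.8 and 58.4 FPKM.

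The licensing genes were set beside further lists of DNA replication genes. Of the 74 genes in these lists, 68 were tested, 0 passed the threshold, and 6 were lower and 0 higher in P at an unadjusted p under 0.05, beside 1.82% of all genes past the threshold and 15.5% lower at the unadjusted level. Their median log2 ratio was -0.56. The list medians are on the scale of the deposited FPKM, on which the median gene lay at -1.03, and 3 other scalings put that gene between -0.43 and 0.0027.

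The origin recognition complex marks the sites at which the helicase is loaded. Its 6 genes had a median ratio of -0.14, with 3 below 0 (80.1% of all genes) and 3 above. *Orc5* was the most abundant, with NP levels of 274, 490 and 134 FPKM and P levels of 311, 158 and 188 FPKM. *Orc1*, the large subunit, had a log2 ratio of 1.45 (standard error 1.16), and *Orc6* one of 0.03 (standard error 1.03).

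Among relatives and partners of the helicase, *Mcm9*, known for a role in homologous recombination in germ cells, was at 11.3, 20.04 and 19.5 FPKM in NP and at 1.25, 2.52 and 0.133 in P. Every P library was below every NP library, and the log2 ratio was -3.07 (SE 1.21; limma, adjusted p = 0.229). The other genes of that list, *Mcm8*, *Mcm10* and *Mcmbp*, all had ratios above 0. For *Mcm10*, which helps to activate the loaded helicase, the ratio was 0.77.

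Cdc45 and the GINS complex turn the loaded ring into an active helicase. In this list of 13 genes with the firing factors, 10 had a ratio below 0 (80.1% of all genes) and the median was -0.59. *Cdc45* had 195, 163 and 26.8 FPKM in the NP libraries and 168, 170 and 31.8 FPKM in the P libraries, with replicate 3 low in both fractions. *Gins4* had a log2 ratio of -1.48 and *Gins2* one of -1.36.

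The 23 genes of DNA polymerases and fork factors had a median of -1.06, with 17 of 23 below 0 (80.1% of all genes) and 5 of 23 whose P libraries were all below NP (23.2% of all genes). *Lig1*, the DNA ligase of the lagging strand, was the 1 gene of the list with every P library above every NP library (0.633% of all genes), at a log2 ratio of 2.20 (limma, adjusted p = 0.371). *Pold2*, of polymerase delta, had the lowest adjusted p of any gene in these lists (0.113 from limma). *Rfc2*, of the clamp loader, was at 230, 229 and 155 FPKM in the NP libraries and at 20.1, 88.9 and 44.6 FPKM in the P libraries (log2 ratio -2.19). *Prim2*, of primase, had a ratio of -0.92. *Pole3* spread from 410 FPKM in P replicate 1 to 23.2 and 0.316 in P replicates 2 and 3.

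The list of Cdt1 turnover and S-phase kinases had 10 of 13 ratios below 0 (80.1% of all genes) and a median of -0.49. Its most abundant genes were those of ubiquitin ligase subunits, *Skp1a* (log2 ratio 0.03), *Ddb1* (-0.42) and *Rbx1* (-0.54). Of the 13 genes of the E2F and retinoblastoma families, which control transcription of licensing genes in cycling cells, 9 were tested, with a median of -0.57. *E2f1* was at 118, 108 and 294 FPKM in the NP libraries and at 69.7, 33.1 and 89.8 FPKM in the P libraries, without overlap (log2 ratio -1.37). *E2f4* and *Tfdp1* had ratios of -1.55 and -0.21. The Geminin relatives *Gmnc* and *Mcidas*, listed as *Gm606* and *Gm6320*, were at 0 in all 6 libraries.

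**Figure D4:**
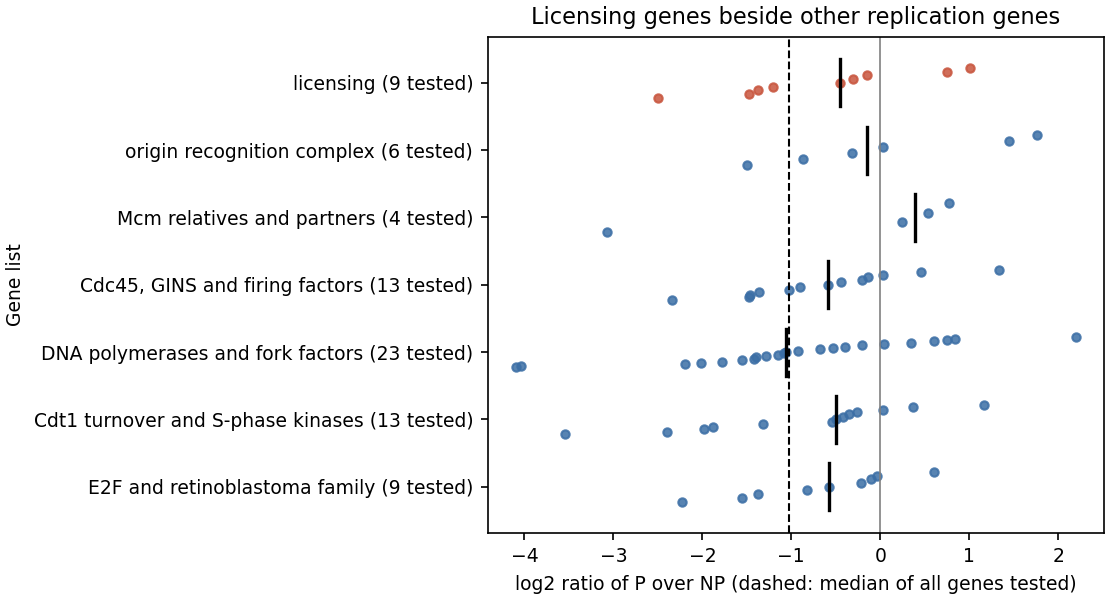
log2 ratios of P over NP for the tested genes of each replication list, with a point per gene, a black bar at the median of the list and a dashed line at the median of all genes tested. The licensing genes, in red, span -2.50 to 1.01 and overlap every other list.

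The cells are oocytes by their markers. The 12 oocyte markers summed to between 4742 and 13948 FPKM in each library, led by *Zp3*, *Gdf9* and *Oosp1*, the means of which in NP were 3217, 1925 and 1569 FPKM. Of the 12, 10 were above 0 in all 6 libraries. *Figla* reached at most 3.46 FPKM and was listed at 0 in P replicates 1 and 3. *Ddx4* was listed at 0 in NP replicate 3. Dividing granulosa cells also express licensing genes. Of 12 granulosa and cumulus markers, 8 were at 0 in all 6 libraries, among them *Foxl2*, *Amh* and *Fshr*, and 11 of the 12 summed to at most 1.10 FPKM in any library. *Cyp19a1* was the exception at 7.15, 22.5 and 104 FPKM in NP replicates 1, 2 and 3 and 15.4 in P replicate 1, and *Kitl* and *Inha* reached at most 1.06 and 0.1499 FPKM. The part of *Cyp19a1* RNA in the levels of licensing genes was not tested. All 4 blood markers found in the table, *Hba-a1* among them, were at 0. *Actb*, the reference mRNA of the study, had a log2 ratio of -1.09 (standard error 0.83).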

How the data were processed

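The labels give 3 NP and 3 P libraries. The deposited values are FPKM per gene, which the authors made by trimming with Trim Galore 0.4.1, alignment to GRCm38 with Hisat2 2.0.5 and quantification in Seqmonk, with the annotation release, strandedness and filters not given in the sources used here. Being divided by exon length and mapped reads, FPKM shows relative levels only. The columns of fraction means are the authors' and were not used.

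For 66 repeated rows the row with the highest mean was kept. The comparison of P with NP used limma (version 3.58.1; R 4.3.3) on log2(FPKM + 1), which understates changes of low genes, with a trend of the spread, no block and two-sided Benjamini-Hochberg adjusted p under 0.1, over genes whose mean exceeded 1 FPKM in either fraction. The script was tested on simulated data. Depth was recovered by scaling FPKM times the exon length of GENCODE M21 until values up to 20 reads came out whole within 0.02 reads, for genes with the same start and end. Between 84.0% and 89.5% of low values per library were whole. A step was taken as 1 read. A value of 0 was given a limit of 3 reads. Named are the members, the 3 genes with the highest mean in each other list, *Actb* and the 3 genes most like *Mcm5*. *Mcm8*, *Pold2*, *Lig1*, *Figla*, *Ddx4*, *Foxl2*, *Amh*, *Fshr* and the genes overlapping a member are outside this rule and were named after their values were seen. The members and lists were chosen with earlier results of these data known. *Gmnc*, *Mcidas* and *Ticrr* were found under older symbols listed by RefSeq. Plots were made in Python 3.11.15. As alternatives, the pseudocount, filter and scaling were changed, and the others were no trend, a replicate block, leaving out each library, and adjusted p under 0.05.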

Additional observations from a re-analysis of the deposited data

How the results depend on the processing

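No alternative brought a licensing gene past the threshold. Of the 15 alternatives, 4 (the filters, the trend and the block) cannot move a ratio. Of the 99 ratios of the 9 members under the other 11, 84 kept their direction and 15 reversed, in 4 members. Quantile normalization, median-of-ratios rescaling and a common FPKM sum gave *Mcm2* 0.49, 0.53 and 0.46, *Mcm3* 0.55, 0.41 and 0.45, and *Cdt1* 0.65, 0.83 and 0.76. These scalings moved the median of all genes from -1.03 to 0.0027, -0.37 and -0.43 and that of the members from -0.46 to 0.49, 0.41 and 0.45, and relative to the median gene *Mcm2*, *Mcm3* and *Cdt1* were above it in the deposited FPKM and in each scaling, but *Mcm2* was below it without P replicate 3 (-0.35), and *Mcm3* without NP replicate 3 (-0.29) and P replicate 1 (-0.67). With no filter, where the median gene was at 0, all 3 were below it. *Cdc6* stayed above the median gene and *Mcm6* below it in 15 of 15 alternatives, of which the trend and the block cannot move this value.

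With a library left out, the ratios ranged from -1.29 to 0.13 for *Mcm2*, -1.70 to 1.304 for *Mcm3*, -2.27 to -0.43 for *Mcm4*, -1.70 to -1.07 for *Mcm5*, -3.43 to -1.59 for *Mcm6*, -1.17 to 1.78 for *Mcm7*, 0.00074 to 1.75 for *Cdc6*, -0.87 to 0.79 for *Cdt1* and -2.40 to -0.29 for *Gmnn*. *Mcm2* reversed without P replicate 1, *Mcm7* without P replicate 3, *Cdt1* without P replicate 2, and *Mcm3* without NP replicate 1 (0.0030), NP replicate 2 (0.72) or P replicate 3. The median of the members was -1.56 without NP replicate 3 and -1.17 without P replicate 3, and that of all genes ranged from -1.34 (without NP replicate 3) to -0.93 (without P replicate 3). With a pseudocount of 0.1 the medians were -1.09 and -1.73. For all genes a pseudocount of 5 gave -0.52, a mean above 5 FPKM -1.30 and no filter 0.

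The number of genes past the threshold was 192 (2 higher in P), and 69 with a pseudocount of 0.1, 1 with no filter, 65 at an adjusted p of 0.05, 15 without the trend, 4 under quantile normalization, 3 under median-of-ratios rescaling, 7 with the common sum, 668 with the replicate block, and 1 to 331 with a library left out. The cause was not tested. Same-numbered libraries deviated together at correlations of 0.0634, 0.0991 and 0.116, not all over 0.1. One lysate gave an NP and a P pool, but no source used here ties the replicate numbers to a lysate. In all 3 each NP library correlated best with the P library of its own number. The replicate block left every member short of the threshold, with *Mcm6* at an adjusted p of 0.165 and *Mcm5* at 0.185 from limma. Depth limits *Gmnn* most, listed from at most 10 reads in P.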
